A study of Mus musculus with 4 samples.

Results

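Lymphatic endothelial cells of the capillary type were examined in ear tissue of C57BL/6 mice taken on postnatal day 8. They numbered 77 of 1500 kept cells in the first mRNA library and 308 of 2250 in the second, or 385 of 3750 in all. A member carried at least 3 unique molecular identifiers (UMIs, each a counted mRNA molecule) of Prox1, Mmrn1 and Reln together and at least 5 of Lyve1. It also carried fewer than 3 of Cldn11, Gdf10 and Fibin, fewer than 3 of Clca3a1 and Foxp2, and fewer than 3 of Mki67 and Top2a. The members were thus chosen by the levels of these 11 gate genes, whose values are given as a description. The members were set against 2 groups of the same libraries. The other lymphatic cells, 228 and 304 in libraries 1 and 2, passed the first sum but not the remaining limits, and blood endothelium, 1093 and 1460 cells, had none of the 3 lymphatic mRNAs and at least 1 UMI of Cdh5.

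All cells came from 1 group of mice. They had been enriched for CD31, stained with tagged antibodies and sorted as live cells positive for CD31 and for the Rtom reporter recombined by Cdh5CreERT2, a tamoxifen-dependent Cre recombinase that acts in endothelial cells. All cells compared share this genotype, and a cell whose reporter was not recombined could not enter the sort. The study has 2 mRNA libraries and 2 matching antibody tag libraries, which the labels call biological replicates, and the labels do not give the number of mice in each. Every p-value below therefore rests on 2 libraries. Except where no replicate block is stated, a shift common to all cells of a library is taken out. The p-values then rest on how far differences between cell groups vary from library to library, pooled over the groups of a fit.

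Lymphatic capillaries are the blind-ended vessels in which interstitial fluid, macromolecules and migrating leukocytes enter the lymphatic system. Their endothelial cells overlap in flaps held by button-like junctions, carry the hyaluronan receptor LYVE1, and secrete CCL21, the chemokine that draws CCR7-bearing dendritic cells into the vessel. Downstream, collecting vessels have tighter junctions, a basement membrane, muscle cover and valves, and their valve cells depend on FOXC2, GATA2 and connexins. PROX1 keeps lymphatic identity, and VEGFR3, the product of Flt4, is the growth factor receptor through which VEGF-C drives lymphatic growth.

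Library 1 held 1745 cell barcodes and 15989249 UMIs, and library 2 held 2877 barcodes and 26675353 UMIs. Members had medians of 9856 and 10406.5 UMIs and of 5.41% and 6.48% mitochondrial UMIs in libraries 1 and 2, against 8679.5 and 10236.5 UMIs and 5.86% and 6.29% in other lymphatic cells and 8250 and 8643 UMIs and 5.12% and 5.84% in blood endothelium. The 2 mRNA libraries share 3 cell barcodes, 1 of them a member. The summed UMIs of the members, 840693 and 3593697, set the precision, and 3 UMIs correspond to 3.57 and 0.835 counts per 1000000 UMIs (CPM) in libraries 1 and 2. Intervals and floors below cover counting error only.

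Of all lymphatic cells, 25.2% in library 1 and 50.3% in library 2 were members, with exact 95% Clopper-Pearson bounds of 20.5% and 30.5% for library 1 and of 46.3% and 54.4% for library 2. Their share of lymphatic cells was higher in library 2, and the 2 intervals did not overlap. The other lymphatic cells were placed in classes in a fixed order: dividing, then Clca3a1 and Foxp2, then Cldn11, Gdf10 and Fibin, then the rest. A later class thus holds only cells that missed the limits of the earlier ones. Cells gated by Clca3a1 and Foxp2, genes of lymphatic valves, made up 42.3% and 23.5%, cells gated by Cldn11, Gdf10 and Fibin made up 10.8% and 6.86%, dividing cells made up 13.1% and 15.7%, and the rest, with under 5 Lyve1 UMIs, made up 8.52% and 3.59%. With 1 group and 2 libraries this difference between libraries was not tested.

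**Figure D1:**
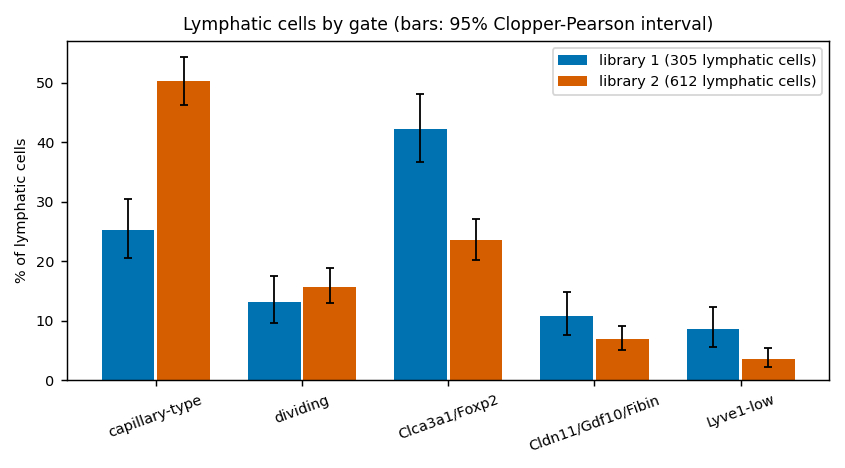
Share of lymphatic cells (y axis, %) in each gate (x axis), with 1 bar per library and 95% Clopper-Pearson intervals as error bars. Members took 25.2% of 305 lymphatic cells in library 1 and 50.3% of 612 in library 2.

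Ptx3 and Mrc1 are the markers that the gate did not use. They were chosen with earlier results of these data known, so their levels describe the members and do not test the label. Ptx3, which encodes a secreted pentraxin that binds matrix and complement components, stood at 849 CPM in library 1 and 971 CPM in library 2 in members, against 352 and 593 CPM in other lymphatic cells and 0.185 and 1.66 CPM in blood endothelium. Mrc1, which encodes the mannose receptor, an endocytic receptor for glycoproteins, stood at 103.5 and 132 CPM in members, against 29.0 and 93.6 CPM in other lymphatic cells and 0.371 and 0.133 CPM in blood endothelium. For both genes the members' 2 values lay above both values of the other lymphatic cells as a whole and of blood endothelium. Dividing lymphatic cells, counted among the other lymphatic cells, had a Ptx3 level close to that of the members. Their Mrc1 level was 64.2 and 150 CPM, below the members in library 1 and above them in library 2. Ptx3 lies on chromosome 3 (66219910 to 66225805, plus strand) and Mrc1 on chromosome 2 (14229392 to 14332057, plus strand) of mm10, both as protein-coding genes.

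Of the gate genes, Lyve1 averaged 2775 ± 400.5 CPM (SD, n = 2 libraries) in members, against 1513 ± 294 CPM in other lymphatic cells and 1.78 ± 1.33 CPM in blood endothelium. Reln, a secreted glycoprotein of the extracellular matrix, averaged 352 ± 2.80 CPM in members and 213 ± 37.9 CPM in other lymphatic cells, and no UMI of it was counted in blood endothelium, as the gate required. Mmrn1, a multimerin released by endothelial cells, averaged 1257 ± 49.3 CPM in members and 1064 ± 23.5 CPM in other lymphatic cells. At the edge of the Lyve1 limit, the 8 and 30 members with 5 to 9 Lyve1 UMIs had 1178 and 892 CPM of Ptx3. The 9 and 17 cells just outside, with 1 to 4 Lyve1 UMIs, had 146 and 580 CPM, the first from 8 UMIs. Mrc1 had 145 and 78.4 CPM just inside, from 9 and 16 UMIs, and 36.4 and 98.8 CPM just outside, from 2 and 16 UMIs. Mrc1 was thus higher inside the limit in library 1 and lower in library 2.

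**Figure D2:**
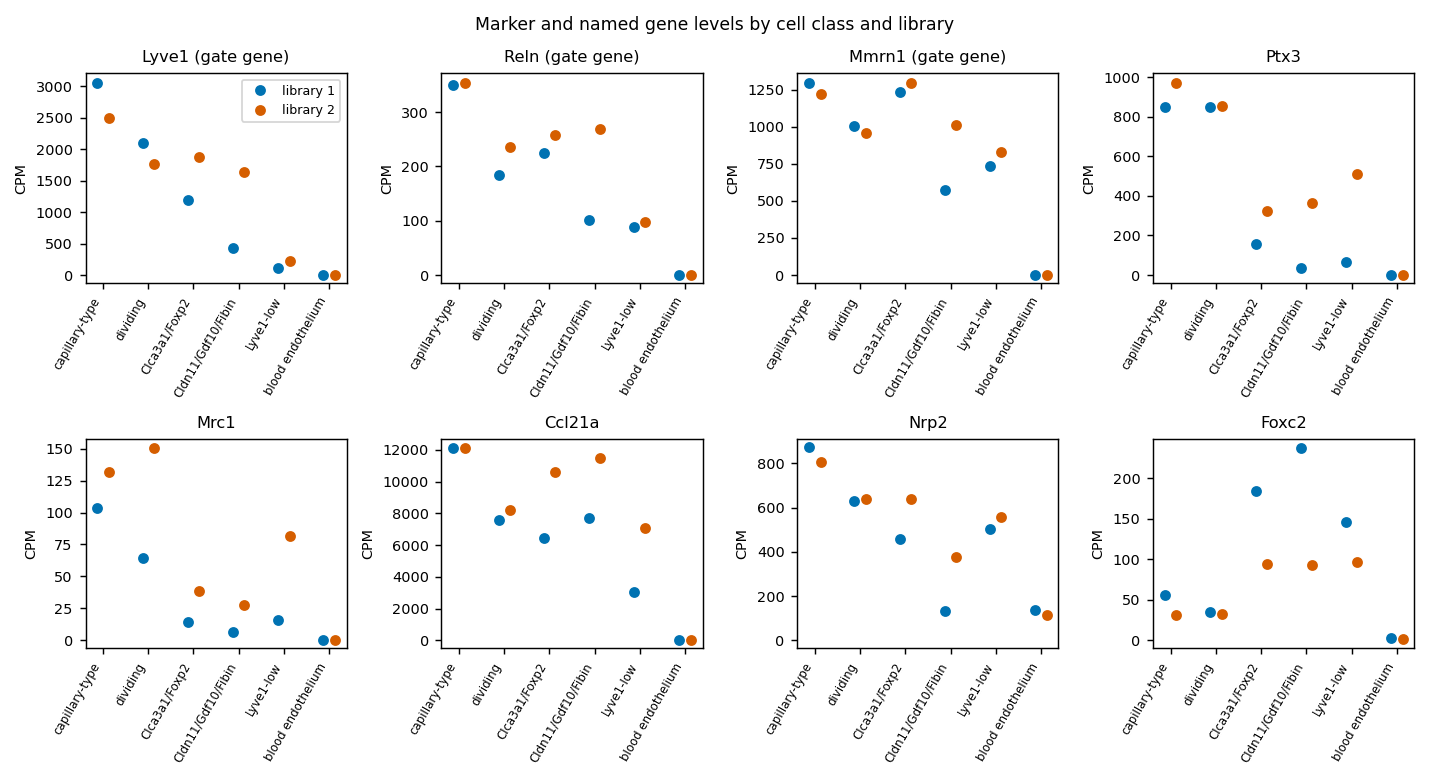
CPM (y axis, linear, from 0) of 8 genes in each cell class (x axis), with 1 point per library. Ptx3, Mrc1, Ccl21a and Nrp2 were not used by the gate; dividing lymphatic cells reached Ptx3 levels like those of the members, and Foxc2 was lowest in members and dividing cells among the lymphatic classes.

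Markers of other cell types were low in the members, to differing degrees. Of 10 macrophage markers, 1 had a UMI in library 1 and 3 in library 2, with a sum of 2.38 and 22.3 CPM in members, against 9.41 and 17.6 CPM in other lymphatic cells and 31.5 and 25.6 CPM in blood endothelium. The defining genes Ptprc, Csf1r and C1qa were at 0 in members of both libraries, although Lyve1 and Mrc1 are also macrophage genes. The 5 fibroblast markers summed to 35.7 and 44.8 CPM in members, against 25.9 and 51.8 CPM in other lymphatic cells and 123 and 138 CPM in blood endothelium. The 4 erythroid markers summed to 0 and 2.50 CPM in members, against 1.18 and 4.95 CPM in other lymphatic cells and 1063 and 1576 CPM in blood endothelium. The 7 pericyte and smooth muscle markers summed to 9.52 and 5.29 CPM in members, against 36.9 and 57.2 CPM in other lymphatic cells and 551 and 434 CPM in blood endothelium. The gate for blood endothelium thus also took in mRNA of pericytes and red cells. Within the other lymphatic cells, the pericyte and smooth muscle sum was 431 and 459 CPM in the class with under 5 Lyve1 UMIs. Dividing cells had 6.29 and 69.3 CPM, Clca3a1 and Foxp2 cells 4.77 and 2.68 CPM, and Cldn11, Gdf10 and Fibin cells 0 and 5.02 CPM. Members thus lay no lower than the Clca3a1 and Foxp2 cells or the Cldn11, Gdf10 and Fibin cells. The 8 blood endothelial markers were Flt1, Plvap, Emcn, Ly6c1, Aqp1, Sox17, Vwf and Cd34. They summed to 309 and 321 CPM in members, with Flt1 and Vwf at 0 in library 1. Other lymphatic cells had 759 and 616 CPM and blood endothelium had 5298 and 5329 CPM. Cells with 20 or more UMIs of these 8 genes made up 1.30% of the members in both libraries, against 8.33% and 5.59% of other lymphatic cells and 88.1% and 89.2% of blood endothelium.

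The members were examined cell by cell after each cell had been thinned to 5000 UMIs, which kept 76 and 291 members. Ptx3 had a UMI in 77.6% and 85.2% of thinned members (89.6% unthinned in library 1), against 42.9% and 63.0% of other lymphatic cells and 0.106% and 0.892% of blood endothelial cells. Mrc1 had a UMI in 28.9% and 36.8% of thinned members, against 9.59% and 25% of other lymphatic cells and 0% and 0.0811% of blood endothelial cells. Both genes were near absent in blood endothelium, and the members lay far above it. Its cells were gated to have no UMI of Prox1, Mmrn1 and Reln, so they may understate free RNA, whose level was not estimated. Ccl21a, by contrast, was near universal, with a UMI in 98.7% and 99.7% of thinned members.

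Among the members, the genes with the highest variance over mean included Ccl21a and several activation genes. The variance of thinned counts divided by their mean was 24.5 and 17.2 for Ccl21a, 9.84 and 13.4 for Fos, 8.18 and 14.9 for Klf2 and 6.69 and 10.7 for Icam1, against a median of 1.07 and 1.08 over 3044 genes. Nts, which encodes the secreted peptide neurotensin, also varied widely at 13.8 and 7.22. Mrc1, at 1.12 and 1.66, and Flt4, at 1.08 and 1.56, lay near that median in library 1 and above it in library 2. Ptx3 lay higher, at 4.06 and 3.89. This ratio can rise with a gene's mean, so it does not rank genes of unlike level. Ccl21a averaged 63.2 and 64.4 thinned UMIs per member and Mrc1 0.382 and 0.588. Vim, at means of 59.9 and 57.5, had ratios of 16.1 and 15.2. Across thinned members, which share a library and a depth, Ptx3 and Mrc1 had a Spearman correlation of 0.35 in library 1 (76 cells) and 0.23 in library 2 (291 cells), while Ptx3 and Lyve1 had -0.04 and -0.08. Both are weak in counts this sparse and are given as a description.

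Against other lymphatic cells, members had more mRNA of Ccl21a, of the lymphatic growth factor receptor genes Flt4 and Nrp2 and of Mrc1. They had less of immediate-early genes, of blood vessel genes and of valve and collecting vessel genes, the last a direction the gate favours. In edgeR's quasi-likelihood test on UMIs summed per library and class, 291 of 11448 genes were higher in members at an adjusted p under 0.05 (2.54% of genes) and 566 were lower (4.94%), or 857 in all (7.49%). Dividing cells are part of the comparison group and not of the members, and 40 of 48 tested cell cycle genes were lower in members and 0 higher, a direction that the gate fixes. With dividing cells also left out of the comparison group, 661 of 11076 genes were higher (5.97%) and 747 lower (6.74%), and 24 of the 48 cell cycle genes were higher in members and 0 lower. Scavenger and endocytic genes did not move one way: of 26, Mrc1 and Ctsd were higher and Cd36, Colec12 and Scarb1 lower, and without dividing cells 1 was higher and 7 lower.

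Of 20 tested genes of lymphatic identity, 7 were higher in members, 0 were lower and 13 did not pass, with a median log2 change of 0.27 against 0.00 over all genes. Ptx3 rose by 1.04 ± 0.15 (log2, SE) with an adjusted p of 0.00104 in edgeR, and Mrc1 by 0.96 ± 0.23 with an adjusted p of 0.0252. Without the dividing cells, whose own Ptx3 level of 849.6 and 854 CPM was close to the members', these changes were 2.06 and 2.11. Ccl21a (chromosome 4, 42772860 to 42773993, minus strand) stood at 12111.4 and 12099.8 CPM in members, against 6696 and 9370 CPM in other lymphatic cells, a rise of 0.68 ± 0.14 with an adjusted p of 0.0124 in edgeR. Ccl21a has close gene copies, and 2 gene entries of that name were summed. Under DESeq2 none of Ptx3, Mrc1 and Ccl21a passed, with adjusted p-values of 0.869, 0.796 and 0.763. In edgeR with no replicate block the adjusted p-values were 0.194, 0.325 and 0.404.

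Receptors for lymphatic growth factors rose with them. Flt4 stood at 551 and 522 CPM in members, against 338 and 423 CPM in other lymphatic cells, a log2 change of 0.55 ± 0.10 (edgeR adjusted p = 0.00518). Nrp2, the co-receptor that binds VEGF-C together with VEGFR3, stood at 874 and 807 CPM in members, against 476 and 608 CPM, a log2 change of 0.69 ± 0.11 (edgeR adjusted p = 0.00302). Both libraries placed members above the other lymphatic cells for both genes. Flt4 did not pass with no replicate block or with at most 5% mitochondrial UMIs (edgeR adjusted p = 0.144 and 0.118). Of the 21 tested genes of VEGF and angiopoietin signalling, Flt4 and Nrp2 were the 2 that rose and 6 fell. The falls were Flt1, Nrp1, Vegfa, Vegfc, Tek and Ptprb, the last a phosphatase that restrains the angiopoietin receptor encoded by Tek. Nrp1 did not pass with DESeq2 (adjusted p = 0.112) or with split UMIs (edgeR adjusted p = 0.0571), Ptprb did not with at most 5% mitochondrial UMIs (0.123), and against the Clca3a1 and Foxp2 cells alone Nrp1, Vegfa and Vegfc did not. Kdr, the gene of VEGFR2, had 404 and 365 CPM in members and 387 and 367 CPM in other lymphatic cells and did not pass (log2 change 0.08 ± 0.10, edgeR adjusted p = 0.714).

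Among 29 tested genes of leukocyte trafficking, 4 rose and 5 fell. Ackr2, a decoy receptor that takes up inflammatory chemokines without signalling, stood at 72.6 and 54.5 CPM in members, against 20.4 and 31.2 CPM in other lymphatic cells, a log2 change of 1.24 ± 0.25 (edgeR adjusted p = 0.00872). Cd200, which encodes a ligand that restrains myeloid cells, rose by 0.56 ± 0.11 (edgeR adjusted p = 0.00892). Ccl2, Cxcl1, Cxcl12, Sele and Selp fell. Ccl2, a monocyte chemokine, stood at 28.5 and 54.0 CPM in members, against 59.6 and 166 CPM in other lymphatic cells. Its log2 change fell by 1.47 in edgeR (adjusted p = 0.000131) and was 0.02 once dividing cells were left out (adjusted p = 0.99), so the Ccl2 difference rests on the dividing cells. Cxcl12 did not pass without Scrublet doublets, where its log2 change was -1.22 in place of -2.17 (edgeR adjusted p = 0.172), nor with DESeq2 (adjusted p = 0.391), no replicate block, split UMIs or at most 5% mitochondrial UMIs (edgeR adjusted p = 0.0671, 0.599 and 0.589). Cxcl1 did not pass with no replicate block (edgeR adjusted p = 0.705), and Selp had a log2 change of 0.91 with split UMIs (edgeR adjusted p = 0.4997).

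Matrix genes moved both ways, 8 of 45 higher and 11 lower. Mmp2, a gelatinase, had 79.7 and 39.5 CPM in members, against 25.9 and 18.1 CPM in other lymphatic cells, a log2 change of 1.45 ± 0.22 (edgeR adjusted p = 0.00144). Emilin1, which encodes an elastic fibre glycoprotein of the anchoring filaments that tether lymphatic capillaries, had 124 and 116 CPM in members, against 74.1 and 70.1 CPM, a log2 change of 0.80 ± 0.12 (edgeR adjusted p = 0.00124). Nid2, Col18a1, Tgfbi, Timp2, Mmp14 and Itga9 were the others that rose. Fn1, Bgn, Itgb4, Adamts1 and Sparcl1 were among those that fell. Piezo2, which encodes a mechanically gated ion channel, had 253 and 217 CPM in members, against 109 and 158 CPM, a log2 change of 0.84 ± 0.15 (edgeR adjusted p = 0.00427, and 0.0785 with no replicate block).

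The largest rises among well-expressed genes outside the lists included Tppp3, a tubulin-binding protein, at 326 and 230 CPM in members, against 143 and 118 CPM in other lymphatic cells (log2 change 1.13 ± 0.11, edgeR adjusted p = 6.26e-05). Adgrg3, an adhesion receptor, had 210.5 and 220 CPM in members, against 94.9 and 124 CPM (log2 change 1.02 ± 0.12, edgeR adjusted p = 0.00016). Ckb, Phlda3, Ablim3, Dapk2, Ccng1 and Cdkn1a rose by 1.30, 1.25, 1.05, 1.03, 1.02 and 0.99 on the log2 scale. Phlda3, Ccng1 and Cdkn1a are known targets of the transcription factor p53. Cdkn1a, a cell cycle inhibitor, had 157 CPM in members of library 1 and 64.0 CPM in those of library 2, against 66.7 and 38.6 CPM in other lymphatic cells, so library 2 members lay below library 1 cells of the comparison group. With at most 5% mitochondrial UMIs none of these 8 genes passed, and with no replicate block Cdkn1a, Ccng1 and Ablim3 did not (edgeR adjusted p = 0.213, 0.138 and 0.0631).

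Genes of collecting vessels and valves were lower in members. Of 21 tested members of that list outside the gate, 8 fell and 1, Itga9, rose, with a median log2 change of -0.53. Foxc2, the transcription factor of valve and collecting vessel formation, had 55.9 and 30.6 CPM in members, against 141 and 64.7 CPM in other lymphatic cells (log2 change -1.13 ± 0.14, edgeR adjusted p = 0.000412). Gja4, the gene of connexin 37, had 130 and 58.7 CPM in members, against 281 and 118 CPM (log2 change -1.02 ± 0.13, edgeR adjusted p = 0.000386). Levels of both were higher in the first library within each group, and within each library members lay lower. Klf2, a flow-induced transcription factor, fell by 0.60 (log2), and Gata2, Neo1, Efnb2, Fn1 and Bmp4 fell as well. With no replicate block Foxc2 and Gja4 did not pass (edgeR adjusted p = 0.125 and 0.288), nor did they with at most 5% mitochondrial UMIs (0.156 and 0.332). Without dividing cells 15 of these 21 genes were lower and 2 higher. Against the Clca3a1 and Foxp2 cells alone, a comparison chosen after seeing the data in which 541 of 10897 genes were higher (4.96%) and 646 lower (5.93%), 14 were lower and 1 higher.

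Immediate-early and stress genes were lower, with 13 of 29 below and 0 above and a median log2 change of -0.42. Jun had 972 and 935 CPM in members, against 1796 and 1668 CPM in other lymphatic cells (log2 change -0.80 ± 0.10, edgeR adjusted p = 0.000244). Nr4a2, an orphan nuclear receptor induced within minutes of stimulation, had 8.33 and 4.17 CPM in members, against 44.7 and 26.0 CPM (log2 change -2.66 ± 0.39, edgeR adjusted p = 0.0011). Fos, Fosb, Junb, Jund, Egr1, Atf3, Ier2, Ier3, Nr4a1, Zfp36 and Socs3 were the others. Without dividing cells 17 of 29 were lower. With no replicate block Atf3 and Socs3 no longer passed (edgeR adjusted p = 0.726 and 0.325), nor with at most 5% mitochondrial UMIs did Atf3 and Klf2 (edgeR adjusted p = 0.12 and 0.0772).

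Blood endothelial genes were also lower, as were perivascular genes against the other lymphatic cells as a whole. The summed blood marker level given above, which includes Flt1, Plvap and Emcn, was lower too. Its part in the result was not tested. In lipid handling 11 of 25 fell and 1 rose, and of 25 junction genes 5 fell and 0 rose. Fabp4, a fatty acid binding protein of blood capillaries, had 36.9 and 76.8 CPM in members, against 869 and 465 CPM in other lymphatic cells and 9531 and 6613 CPM in blood endothelium. Its log2 change against other lymphatic cells was -3.10 ± 0.25 (edgeR adjusted p = 8.28e-06, and 0.183 with at most 5% mitochondrial UMIs). Esam, an adhesion molecule of blood endothelial junctions, fell by 2.11 and Emcn, a sialomucin, by 1.20, with edgeR adjusted p-values of 3.41e-05 and 9.21e-05. Plvap, which forms the diaphragms of fenestrae and caveolae, fell by 1.69 (edgeR adjusted p = 7.91e-05). No UMI of Meg3 and Dlk1, both imprinted genes, was counted in members, which put them at least 35.2-fold and 13.0-fold lower than in other lymphatic cells against a floor of 3 UMIs over both libraries. The pericyte gene Rgs5 had 1 UMI in members and 202 in other lymphatic cells, a ratio of 136 with a 95% counting interval of 24.1 to 5397. Meg3, Dlk1 and Rgs5 did not pass when each cell's UMIs were split between gate and test (edgeR adjusted p = 0.167, 0.332 and 0.245), nor against the Clca3a1 and Foxp2 cells alone. Slco2a1, another of the largest falls, had a log2 change of -5.41 (edgeR adjusted p = 0.00172). It passed with split UMIs (log2 change -4.61, edgeR adjusted p = 7.4e-05) and against the Clca3a1 and Foxp2 cells alone (-6.31, edgeR adjusted p = 0.000137).

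**Figure D3:**
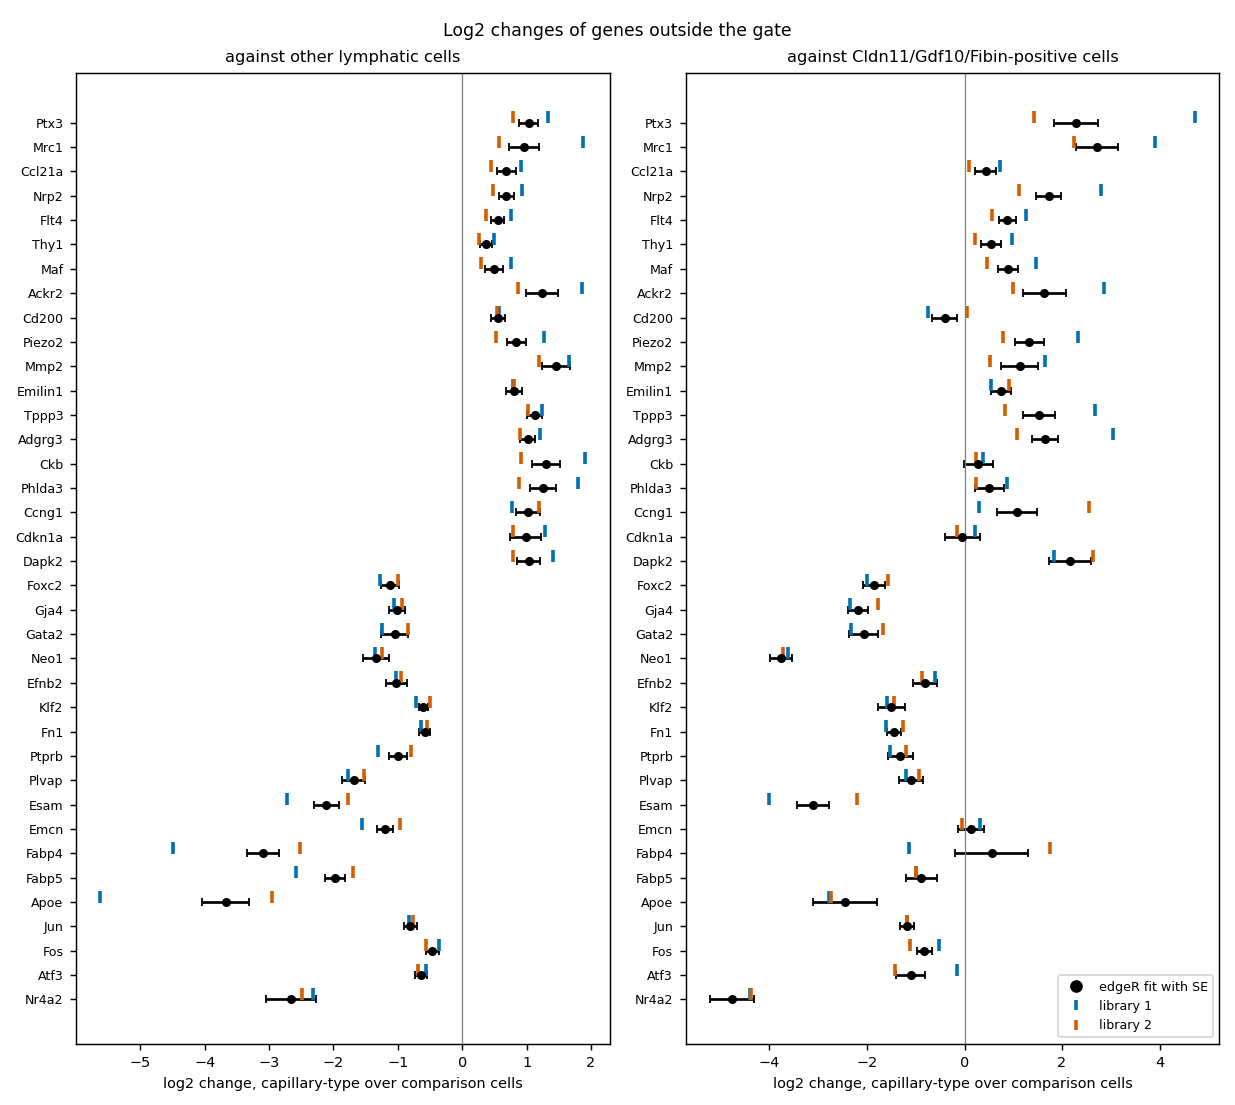
Log2 change (x axis) of 37 genes outside the gate (y axis) in members over other lymphatic cells (left) and over Cldn11, Gdf10 and Fibin cells (right). Black points are edgeR fits with SE, and coloured ticks are the 2 libraries; in the left panel all ticks lie on the side of the fit.

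Set against the 33 and 42 cells gated by Cldn11, Gdf10 and Fibin, genes of collecting vessels, the members had more mRNA of Flt4, Nrp2, Ptx3 and Mrc1. They had less of valve and collecting vessel genes, a direction that this gate favours. Scavenger and endocytic genes went both ways, 3 of 24 higher (Stab1, Mrc1 and Ctsd) and 2 lower (Scarb1 and Cd63). Of 9978 genes, 333 were higher in members (3.34%) and 425 lower (4.26%), or 758 in all (7.6%). This comparison shares its member cells with the one above, and its comparison cells are a subset of the other lymphatic cells, so the 2 are not independent. The Cldn11, Gdf10 and Fibin cells leave out those that reached the limit for dividing cells or for Clca3a1 and Foxp2. The members had 3058 and 2492 CPM of Lyve1, against 428 and 1641 CPM in these cells, whose library 2 sample stood closer to the members than that of library 1.

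Mrc1 had 103.5 and 132 CPM in members, against 6.58 and 27.6 CPM in the Cldn11, Gdf10 and Fibin cells (log2 change 2.72 ± 0.42, edgeR adjusted p = 0.000481). Ptx3 had 849 and 971 CPM in members, against 32.9 and 364 CPM (log2 change 2.29 ± 0.44, edgeR adjusted p = 0.00329, and 0.12 with no replicate block), and the size of its difference varied between the libraries. Nrp2 had 874 and 807 CPM in members, against 132 and 376 CPM (log2 change 1.73 ± 0.25, edgeR adjusted p = 0.000237). Of 19 tested identity genes, 7 were higher (Flt4, Ptx3, Mrc1, Stab1, Nrp2, Maf and Nr2f2) and 3 lower (Sema3d, Tbx1 and Nfatc1). Ephb1, a receptor of ephrins, and Dapk2, a calmodulin-regulated kinase, rose by 2.13 and 2.16, and the genes Tubb6 and Ptgfrn by 2.12 and 2.13. Of 11 caveolar and diaphragm genes, the coat genes Cavin1, Cavin2 and Cavin3 rose by 0.75, 0.78 and 0.67, and Cav2 and Plvap fell.

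Genes of collecting vessels and valves outside the gate fell in 13 of 20 and rose in 1, Gja1. The comparison cells were gated on genes of collecting vessels, so the gate favours this direction. Neo1, a receptor of netrins and repulsive guidance molecules, had 32.1 and 21.7 CPM in members, against 425 and 299 CPM in the Cldn11, Gdf10 and Fibin cells (log2 change -3.77 ± 0.22, edgeR adjusted p = 5.65e-09). Gja4 fell by 2.18, Gata2 by 2.07, Foxc2 by 1.85, Fn1 by 1.45 and Klf4 by 1.23, each past the threshold. Net1, a guanine nucleotide exchange factor of RhoA, had 11.9 and 8.63 CPM in members, against 339 and 108 CPM (log2 change -4.24 ± 0.29, edgeR adjusted p = 3.62e-08). Hbegf, an EGF family growth factor, had 1.19 and 1.95 CPM in members, against 79.0 and 37.6 CPM. Angpt2, the angiopoietin ligand that antagonises or weakly activates the Tie2 receptor, had 71.4 and 92.9 CPM in members, against 319 and 225.8 CPM (log2 change -1.61 ± 0.21, edgeR adjusted p = 7.97e-05). Among flow response genes 8 of 20 fell and Piezo2 rose, and 15 of 28 immediate-early genes fell and 0 rose.

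Cell cycle genes other than Mki67 and Top2a were often higher in members here, as they were against other lymphatic cells without the dividing ones. Both classes were held to the same limit on Mki67 and Top2a, and 13 of 48 other cell cycle genes were higher in members and 1 lower, with a median log2 change of 1.65, or 1.35 with genes at 0 UMIs set to their bound. H2afz, a histone variant, had 732 and 986 CPM in members, against 563 and 487 CPM (log2 change 0.77 ± 0.16, edgeR adjusted p = 0.00492). Mcm6, a subunit of the replicative helicase, had 79.7 and 59.8 CPM in members, against 19.8 and 30.1 CPM (log2 change 1.41 ± 0.33, edgeR adjusted p = 0.0113). Cdca8, a mitotic gene, had no UMI in the Cldn11, Gdf10 and Fibin cells, which put it at least 3.12-fold higher in members. With UMIs split between gate and test, 258 genes passed in place of 758 in this small class, and with cells of 5000 to 15000 UMIs 335 passed.

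Against blood endothelium the members differed in 4644 of 11448 genes (40.6%), 2137 higher (18.7%) and 2507 lower (21.9%). Of 20 lymphatic identity genes outside the gate, 16 were higher and 1, Itih5, was lower, with a median log2 change of 3.75 against -0.02 over all genes. Members were gated by lymphatic mRNAs and blood endothelium by the absence of Prox1, Mmrn1 and Reln, so the gate favours this direction. Ccl21a had 12111.4 and 12099.8 CPM in members, against 4.72 and 12.6 CPM in blood endothelium (log2 change 10.46 ± 0.23, edgeR adjusted p = 2.77e-11). Pdpn, the gene of podoplanin, which binds CLEC2 on platelets and dendritic cells, had 253 and 155 CPM in members. Blood endothelium had 3 UMIs of Pdpn in all, a ratio of 1496 with a 95% counting interval of 510.0 to 7271.

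The largest rises took in genes of several roles. Dtx1, a regulator of Notch, had 203 and 141 CPM in members, against 0.371 and 0 CPM in blood endothelium. Sh3gl3, an endophilin, had 293 and 241 CPM in members, against 0.0926 and 0.464 CPM. Slc45a3, a solute carrier, had 262 and 181 CPM in members, against 0.278 and 0.464 CPM, and Pard6g, a cell polarity protein, had 645 and 483 CPM, against 3.33 and 2.52 CPM. The cell adhesion gene Nrcam and the secreted semaphorin gene Sema3d rose by 8.28 and 8.13. All 6 genes were low or absent in the blood endothelium of both libraries.

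Among trafficking genes 10 of 29 rose and 19 fell, so that every tested gene of this list passed. Il7, the cytokine that sustains lymphocytes, had 79.7 and 62.6 CPM in members, against 0.834 and 0.928 CPM in blood endothelium (log2 change 6.28 ± 0.20, edgeR adjusted p = 3.01e-10). Stab1, a scavenger receptor, rose by 3.39 and Ackr2 by 7.91. Selp, Sele, Icam1, Icam2 and Vcam1, which capture leukocytes from blood, were lower. Among scavenger and endocytic genes 12 of 26 rose, among them the lysosomal and endosomal Cd63 by 2.22, and 5 fell, among them Scarb1, an HDL receptor, by 5.11. Guidance genes rose in 10 of 27 and fell in 13, with Ntn1, a netrin, at 144 and 114 CPM in members, against 2.32 and 1.13 CPM in blood endothelium.

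Antigen presentation, interferon and Notch genes were lower in members than in blood endothelium. Of 17 tested presentation genes, 12 fell and 1, Calr, rose. B2m, the light chain of MHC class I, had 399.7 and 403 CPM in members, against 1061 and 1027 CPM in blood endothelium (log2 change -1.36 ± 0.07, edgeR adjusted p = 1.67e-08), and Psmb8, an immunoproteasome subunit, fell by 2.22. Of 24 interferon genes, 20 fell and 1, Irf8, rose, at 70.2 and 70.4 CPM in members, against 5.83 and 11.1 CPM. Of 21 Notch pathway genes, 12 fell, with Notch4 and Mfng, a glycosyltransferase that modifies Notch, at 1.19 and 1.95 CPM each in members, against 65.0 and 58.1 CPM and 109 and 115 CPM. Notch2, Hes1 and Rbpj rose.

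Genes of blood vessels and of cells that accompany them made up the largest falls. Sparcl1, a matricellular protein, had 7.14 and 9.74 CPM in members, against 1522 and 1466 CPM in blood endothelium. Flt1, the decoy VEGF receptor, had 0 and 5.01 CPM in members, against 411 and 454 CPM. Nrp1 had 0 and 3.34 CPM in members, against 507 and 439 CPM, whereas Nrp2 had 874 and 807 CPM, against 136 and 116 CPM, so the 2 neuropilins differed in opposite directions. The globin genes Hbb-bt and Hba-a2 and the muscle gene Tagln had no UMI in members, at least 261-fold, 194-fold and 109-fold lower. The summed levels of erythroid and mural markers in blood endothelium are given above. Basement membrane and matrix genes fell in 27 of 45 and rose in 13, and immediate-early genes fell in 21 of 29 and rose in 3.

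**Figure D4:**
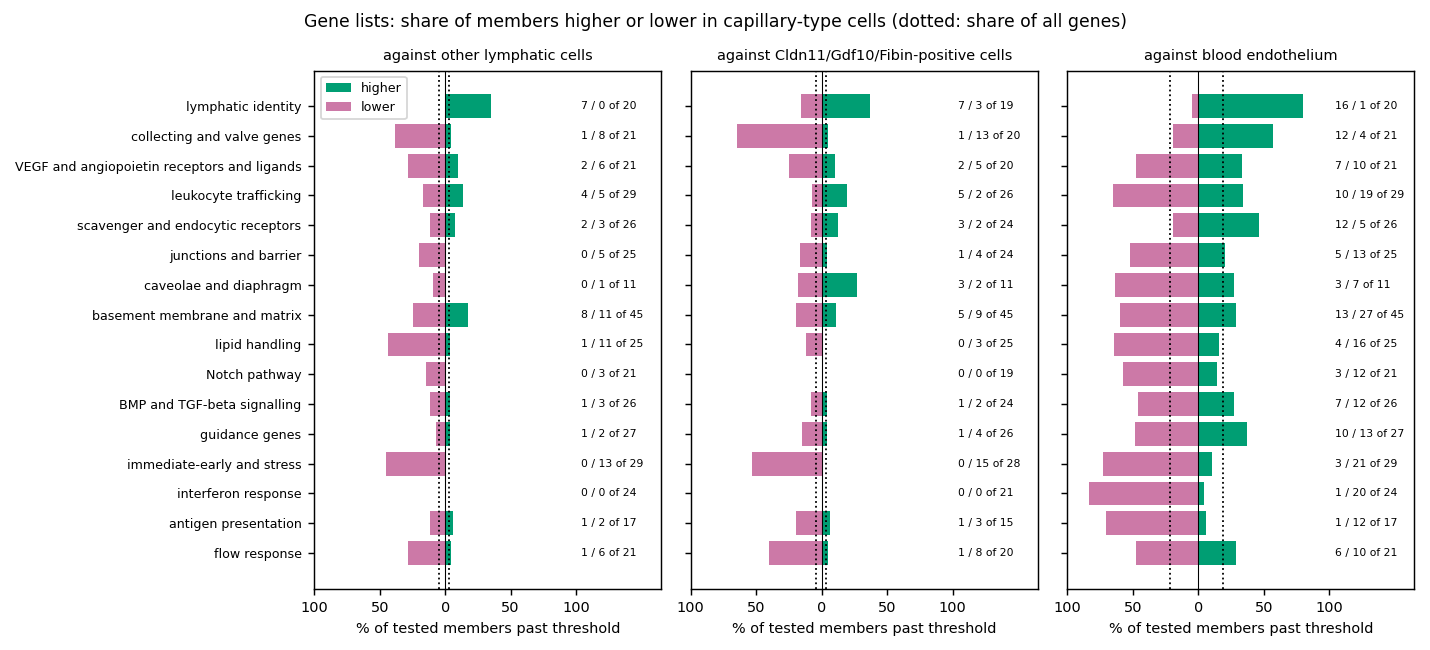
Share of each gene list's tested members (x axis, %) that was higher (right of 0) or lower (left of 0) in the capillary-type cells in 3 comparisons, with counts of higher, lower and tested genes at the right and the share over all genes as dotted lines. The lymphatic identity list was higher in 7 of 20, 7 of 19 and 16 of 20, and no interferon gene passed against either lymphatic group.

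The antibody tags are the readout that the gate did not use. Each antibody carried an oligonucleotide that was sequenced with the cell's barcode, and the sequences are shown because the counts below are counts of these oligonucleotides. The first 5 mark the surface proteins and the last 2 the isotype controls, antibodies with no intended target on mouse cells. Counts of a control can still come from unspecific binding, and no control is matched here to a single antibody. All letters are given in capitals, since the whole tag identifies the antibody.
ICAM1: ATAACCGACACAGTG
VCAM1: CGTTCCTACCTACCT
CXCR4: GTCGTGGTGTTGTTC
VEGFR2: ATAAGAGCCCACCAT
CD45: TGGCTATGGAGCAGA
rat IgG2a control: AAGTCAGGTTCGTTT
rat IgG2b control: GATTCTTGACGACCT

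A tag barcode was found for 75 of 77 members in library 1 and for 257 of 308 in library 2, against 221 of 228 and 261 of 304 other lymphatic cells and 1077 of 1093 and 1435 of 1460 blood endothelial cells. Thus 83.4% of library 2 members had tag counts, against 98.3% of its blood endothelial cells. Over 2 libraries no permutation test of a tag can go below p = 0.5 when libraries are paired, so tag values are given with no test.

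CXCR4, the receptor of the chemokine CXCL12, averaged 0.933 and 1.07 tag counts per member in libraries 1 and 2, against 1.70 and 2.83 in other lymphatic cells and 24.6 and 24.2 in blood endothelium. In members the IgG2a control averaged 0.827 and 1.11 and the IgG2b control 0.0933 and 0.187, so CXCR4 lay near the first control and above the second. The median CXCR4 count was 1 in members and in other lymphatic cells of both libraries, and single cells with up to 68 and 219 counts lay among the other lymphatic cells. Cxcr4 mRNA stood at 0 and 1.39 CPM in members, 0.392 and 2.72 CPM in other lymphatic cells and 18.1 and 17.4 CPM in blood endothelium.

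ICAM1, the adhesion molecule for leukocyte integrins, averaged 40.1 and 50.2 tag counts per member, against 34.3 and 56.8 in other lymphatic cells and 153 and 180 in blood endothelium. It was the tag that stood far above both controls in members, and against other lymphatic cells its mean was higher in library 1 and lower in library 2. The median ICAM1 count was 26 and 34 in members, against 21 and 30 in other lymphatic cells, so by medians members were higher in both libraries. With cells of 5000 to 15000 UMIs the means were 34.9 and 48.3 in members, against 26.9 and 39.4. Icam1 mRNA was 113 and 427 CPM in members, 99.6 and 461 CPM in other lymphatic cells and 408 and 1141 CPM in blood endothelium. The mRNA was lower in members than in blood endothelium (log2 change -1.60 ± 0.14, edgeR adjusted p = 1.66e-06, and 0.206 with no replicate block) and did not pass against other lymphatic cells (0.07 ± 0.14, edgeR adjusted p = 0.843). As a share of a class's antibody counts, ICAM1 took 84.4% and 86.1% in members and 80.2% and 82.8% in blood endothelium, so its difference holds for counts per cell and not for shares.

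VEGFR2 averaged 3.01 and 3.15 tag counts per member, against 3.01 and 4.43 in other lymphatic cells and 3.38 and 4.10 in blood endothelium. VCAM1 averaged 1.19 and 1.14 per member, against 1.59 and 2.22 in other lymphatic cells and 2.33 and 2.43 in blood endothelium, with the members again near the IgG2a control and above the IgG2b control. CD45, the leukocyte antigen, averaged 1.37 and 1.43 per member, against 1.10 and 6.01 in other lymphatic cells and 6.00 and 4.42 in blood endothelium. The median CD45 count was 1 in members and in blood endothelium of both libraries, and single cells with up to 958 counts in other lymphatic cells and 3452 in blood endothelium lay behind the higher means. The highest CD45 count among members was 24, and no Ptprc mRNA was counted in them, which allows up to 3.57 and 0.835 CPM.

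**Figure D5:**
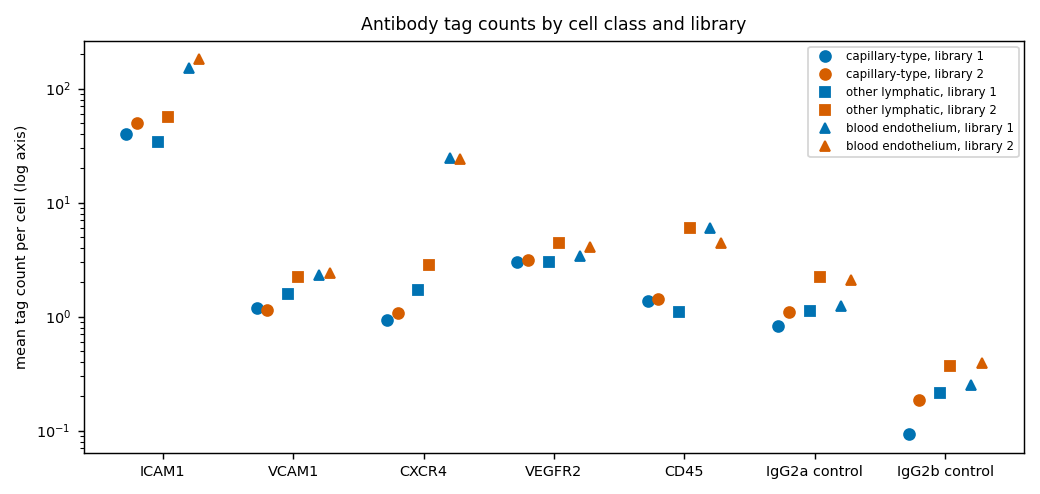
Mean tag count per cell (y axis, log scale) for 5 antibodies and 2 isotype controls (x axis), with the cell class as symbol and the library as colour. In members CXCR4 and VCAM1 lie near the IgG2a control and above the IgG2b control, and ICAM1 averages 40.1 and 50.2, below the 153 and 180 of blood endothelium.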

How the data were processed

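Single-cell mRNA matrices of 2 libraries and antibody tag matrices of the same libraries were used. The mRNA files hold raw UMI counts per gene and barcode that the authors deposited. The submitters' processing notes name Cell Ranger, mm10 and, with no role stated, Seurat 3.0.2, and per the file headers the matrices were written by software version 3.0.2. The tag files hold deposited counts per antibody and barcode, but the sources used here do not say whether these are UMIs or reads. Alignment settings and the rule for keeping barcodes were not given in the sources used here.

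Barcodes with under 500 genes or over 10% mitochondrial UMIs were left out. The 31054 features were summed to 31018 symbols, and gene positions come from GENCODE for mm10. The members, markers, gene lists and tests were chosen with earlier results of these data known. Sums of UMIs for every class in each library went into edgeR 4.0.16 (TMM, filterByExpr, quasi-likelihood test, Benjamini-Hochberg over all genes, threshold 0.05) in R 4.3.3, after a test on simulated data. The library was a block, since every class shares its animals with the other classes of that library. The fit of 3 classes left 2 residual degrees of freedom and the fit of 6 classes 5. Levels are CPM of the summed UMIs without TMM, and fold changes use TMM, so the 2 can differ slightly. No correction for free RNA was made, and doublets were kept in the main results: Scrublet (scanpy 1.11.5) marked 0 and 1 members, which is too few to show that it worked. Cells with Xist and Y-linked UMIs numbered 0 and 3 among members.

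Named genes were the markers, the genes of the tagged proteins, the 10 largest rises and falls past the threshold (mean log2 CPM 5 or more, libraries of like sign), and per list the 4 genes of smallest adjusted p. The ranking skipped gate and cell cycle genes, predicted models, ribosomal proteins and mitochondrial genes. Genes beyond this rule, named as members of a list past the threshold, were chosen after their values were seen. List medians moved by at most 0.34 (log2) when genes at 0 UMIs were set to their bound. Alternatives were DESeq2 1.42.0, RLE scaling, no filter, no block, other depth, Lyve1 and mitochondrial limits, left-out cells, and UMIs split between gate and test. Tag sequences come from the deposited feature lists.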

Additional observations from a re-analysis of the deposited data

How the results depend on the processing

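The number of genes past the threshold depended on the fit. Against other lymphatic cells, 857 genes passed in edgeR with the library block, 478 with DESeq2, 359 with no replicate block, 463 with cells of 5000 to 15000 UMIs, 291 with at most 5% mitochondrial UMIs and 1408 without the dividing cells. All 359 genes found without the block and all 478 found with DESeq2 were among the 857, and 550 of the 1408 were. Against blood endothelium 4644 passed, with 3060 by DESeq2 and 2322 at most 5% mitochondrial UMIs. Against the Cldn11, Gdf10 and Fibin cells 758 passed, with 448 with no replicate block, 335 with 5000 to 15000 UMIs and 258 with split UMIs. The other alternatives kept each count within 1.5 times. The share of members among lymphatic cells averaged 37.8%, with a range of 25.2% to 50.3% over single libraries. At the other limits tried the mean share ran from 34.0% to 43.5%. These lay within the SD of 17.7 points, but an SD so wide cannot show that the share is stable. Of 10 tag comparisons, members were lower in both libraries in 8 by mean counts, in 4 by share of antibody counts and in 2 by medians. Leaving out a library gave 8 to 10. The 8 by mean counts take in VEGFR2 against other lymphatic cells, although its library 1 means of 3.013 and 3.014 hardly differed.

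Among genes named against other lymphatic cells, those of division reversed without dividing cells (Hist1h1b 1.43, Prc1 1.03, Hist1h2ae 0.51) and against Clca3a1 and Foxp2 cells alone, an alternative chosen after seeing the data (1.67, 1.37 and 0.69). Against those Clca3a1 and Foxp2 cells Meg3 (0.0205), Cxcr4 (0.62), Icam1 (-0.39) and Kdr (-0.0108) also changed sign; without dividing cells so did Icam1 (-0.21), Kdr (-0.0175) and Ccl2 (0.024), and with 5000 to 15000 UMIs Ccl2 (0.44). With split UMIs Dlk1 (1.57), Selp (0.91) and Cxcr4 (0.32) reversed, and with at most 5% mitochondrial UMIs Rgs5 (4.28). Against the Cldn11, Gdf10 and Fibin cells Esm1 reversed at 5000 to 15000 UMIs (3.04), Mecom (2.69) and Cxcl12 (6.77) with split UMIs, and Cxcl12 (0.0865) without Scrublet doublets. None of these reversed values passed the threshold. On the log2 scale the ICAM1 tag against other lymphatic cells ranged over single libraries from -0.18 without library 1 to 0.22, the CD45 tag from -2.07 to 0.32 without library 2, and the CD45 tag was 0.31 at 5000 to 15000 UMIs. As shares of antibody counts, ICAM1, VCAM1, VEGFR2 and CD45 against blood endothelium reversed (0.0655, 0.92, 1.68 and 0.0789). The cause was not tested.

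Leaving out a library leaves no residual degrees of freedom, so it gives values with no test; no such value changed the direction of a call for a named gene, but 43 of 213 gene values moved by over 1 SD between libraries without library 1 and 85 without library 2. The limit of 5% mitochondrial UMIs was not run against the Cldn11, Gdf10 and Fibin cells, of which under 20 remained per library. Depth limits the small classes most: 3 UMIs correspond to 9.87 and 7.53 CPM in the Cldn11, Gdf10 and Fibin cells.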

Other observations

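Interferon genes differed between the members of the 2 libraries, and in blood endothelium most differed the other way. Of 21 interferon genes with 10 or more UMIs, 16 were higher in library 2 members, with a median log2 difference of library 2 over library 1 of 0.70 against -0.07 over 10683 genes. In other lymphatic cells 16 of 22 were higher in library 2, with a median of 0.16, and in blood endothelium 4 of 25 were, with a median of -0.28. Isg15, an interferon-induced ubiquitin-like protein, had 58.3 and 112 CPM in members of libraries 1 and 2, against 201 and 139 CPM in blood endothelium. With 1 library on each side there is no test of this difference.

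After Phlda3, Ccng1 and Cdkn1a had come out among the largest rises against other lymphatic cells, further genes known as p53 targets were looked up, so these values carry no test. Trp53inp1, Bbc3, Aen, Cdkn1c, Ccnd1, Gdf15 and Sesn2 were looked up as well and are not given here, so the genes below are a selection. Bax, a pore-forming protein of apoptosis, had 330 and 289 CPM in members, against 245 and 231 CPM in other lymphatic cells. Zmat3, a zinc finger RNA-binding protein, had 33.3 and 21.1 CPM in members, against 9.80 and 14.4 CPM. Eda2r, a receptor of ectodysplasin, had 4.76 and 5.01 CPM in members, against 2.75 and 1.98 CPM. Its value in library 1 members lay near the 3.57 CPM to which 3 UMIs correspond there. Mdm2, which degrades p53, did not follow, at 29.7 and 50.1 CPM in members and 43.9 and 46.1 CPM in other lymphatic cells, and Trp53 itself had 133 and 146 CPM, against 147 and 144 CPM.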
